A study of Mus musculus with 3 samples.

Results

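Hedgehog signalling genes were described together with Arhgap36 in RNAseq of the mouse incisor enamel organ, the epithelium that forms enamel. The 9 genes were chosen by symbol: Arhgap36, the ligand Shh, the membrane proteins Ptch1, Smo and Hhip, the cytoplasmic inhibitor Sufu, and the transcription factors Gli1, Gli2 and Gli3. They were selected on knowledge of the pathway and, for Arhgap36, on its low level in Stim1 cKO in these libraries. All 9 were among the 20937 genes with counts, and all 9 were among the 18702 genes that passed the filter on low counts. Because values of Stim1 cKO against its controls had been seen when the genes were chosen, their levels are given as a description. For the same reason, calls of these genes in tests over all genes are not counted.

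The study deleted Stim1, which encodes the calcium sensor of the endoplasmic reticulum that opens store-operated calcium channels, in ameloblasts of floxed mice. Cre recombinase came from the AmelX-iCre transgene, driven by the amelogenin promoter, which is active in ameloblasts from the secretory stage onwards. RNA of the whole dissected incisor enamel organ of male mice aged 4 weeks was sequenced in 3 libraries. Stim1 cKO carried Stim1 fl/fl and Cre, Stim1 HT carried Stim1 fl/wt and Cre, and Stim1 Ctrl carried Stim1 fl/fl without Cre, so each library had at least 1 floxed allele. There was 1 library per genotype, and the spread between mice of a genotype is unknown. The totals were 21496136 (Stim1 cKO), 20216507 (Stim1 HT) and 28265960 counts (Stim1 Ctrl).

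In hedgehog signalling, a secreted ligand binds Patched at the primary cilium, which releases Smoothened from inhibition and lets the Gli proteins act as activators of transcription. Protein kinase A holds the pathway off by phosphorylating Gli proteins, and Arhgap36 is known as an inhibitor of its catalytic subunit that activates Gli. In the continuously growing mouse incisor, Shh is made by the dental epithelium, and epithelial and mesenchymal cells near the cervical loop respond to it.

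Levels are given in TMM-scaled CPM, which correct for library size and composition. Detection was taken to begin above 3 counts, which equal 0.124 (Stim1 cKO), 0.152 (Stim1 HT) and 0.117 CPM (Stim1 Ctrl). The 95% intervals of levels (exact Poisson) and of ratios between libraries (exact conditional binomial) cover counting error only. Coordinates follow GENCODE M21 (GRCm38).

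Stim1, the deleted gene (chr7:102267806-102437319), was at 72.8 (Stim1 cKO), 129 (Stim1 HT) and 186 CPM (Stim1 Ctrl). The libraries were thus ordered by the number of intact alleles in their labels. Stim1 was still detected in Stim1 cKO, at 1763 counts, and counts per gene do not separate the deleted exons from the rest or ameloblasts from other cells.

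The libraries also stood apart in markers of several cell types. Summed over the 4 genes of the secretory ameloblast list, led by Amelx, the level was 3584 (Stim1 cKO), 31173 (Stim1 HT) and 23113 CPM (Stim1 Ctrl). The 5 genes of the maturation list, led by Odam, summed to 912, 384 and 168 CPM in the same order. Markers of ameloblasts were thus present in each library. All 4 secretory genes were below both controls in Stim1 cKO, while 4 of the 5 maturation genes were above both, Amtn within counting error of Stim1 HT, and Klk4 was at 29.0, 30.2 and 12.7 CPM. The 8 genes of the enamel epithelium list, led by Krt5, summed to 2942, 1853 and 1743 CPM. Of these, 6 were above both controls in Stim1 cKO, while Sfrp5 (4.17, 9.65 and 12.7 CPM) and Lrig1 (61.8, 86.0 and 104 CPM) were below both.

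Tissues other than the enamel organ were represented as well. The 7 genes of the perinatal muscle list, led by Myh8, summed to 519 (Stim1 cKO), 6452 (Stim1 HT) and 11389 CPM (Stim1 Ctrl), and each of the 7 was over 2-fold lower in Stim1 cKO than in both controls. The 7 adult muscle genes summed to 3279, 8091 and 9882 CPM, led by Myh1, Mylpf and Ckm in the respective libraries. The 7 cartilage genes summed to 119, 595 and 797 CPM, led by Acan in Stim1 cKO and Col2a1 in the controls. The 7 fibroblast genes, led by Col3a1, summed to 3952, 8349 and 12793 CPM, and the 8 genes of dividing cells to 280, 632 and 837 CPM, led by Top2a in Stim1 cKO and Mki67 in the controls. The sums of these lists were lowest in Stim1 cKO. All 7 fibroblast genes and all 8 genes of dividing cells were below both controls, against 5 of the 7 adult muscle genes, with Myh4 above both (473, 318 and 29.1 CPM), and 5 of the 7 cartilage genes, with Matn1 above both. Among those 5 adult muscle genes, Myh1 was within counting error of Stim1 HT.

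Other lists went the opposite way or set Stim1 HT apart, except that the odontoblast and bone list had its lowest sum in Stim1 cKO. The 7 neuron genes summed to 870 CPM in Stim1 cKO, led by Stmn2, against 236 and 199 CPM in Stim1 HT and Stim1 Ctrl. Of the 7, 5 were above both controls and Nefm was below both (41.4, 42.7 and 71.3 CPM), though within counting error of Stim1 HT. Of 7 pituitary genes, Prl, Tshb, Cga, Lhb and Pou1f1 were not listed. A gene without reads in Stim1 cKO or Stim1 Ctrl is left out, whatever its count in Stim1 HT. The 2 listed, Gh and Pomc, summed to 510 CPM in Stim1 HT and to 1.16 and 0.544 CPM in Stim1 cKO and Stim1 Ctrl. Stim1 HT therefore held pituitary transcripts that the other libraries almost lacked, and counts over 2-fold and medians of the hedgehog lists are also given without Stim1 HT. The odontoblast and bone list summed to 2533, 2783 and 2879 CPM, led by Dspp in Stim1 cKO and Ibsp in the controls. Of its 7 genes, 4 were below both controls in Stim1 cKO and 1 above both. The skin list summed to 1313, 488 and 1167 CPM, led by Krt10 in Stim1 cKO and Stim1 HT and by Lor in Stim1 Ctrl. Of the 5 skin genes tested, 2 were below both controls, each over 2-fold, and 2 above both.

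**Figure D1:**
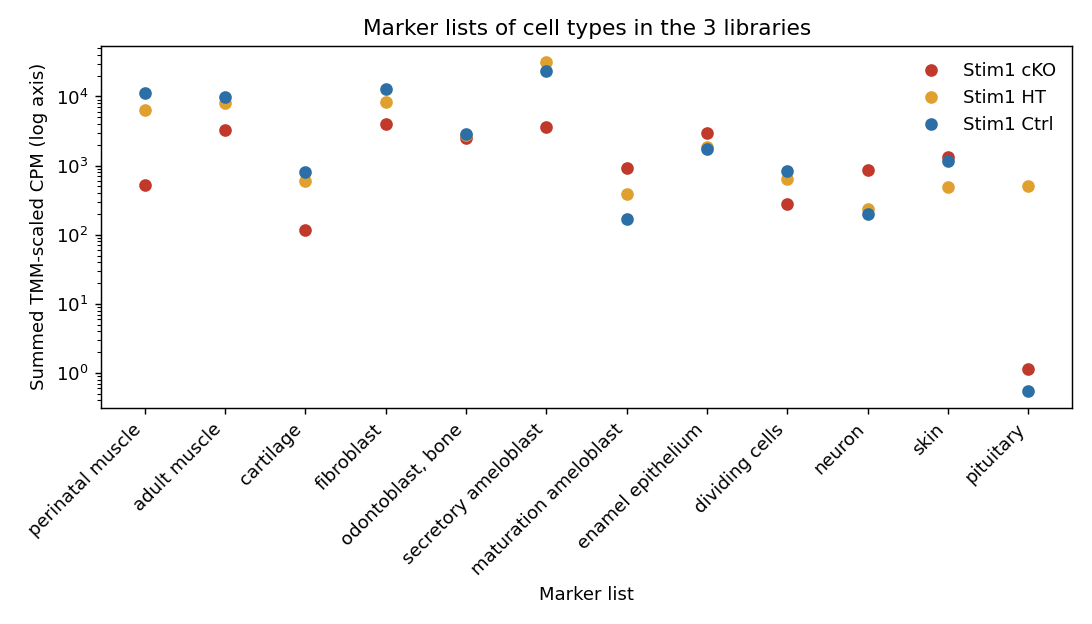
Summed TMM-scaled CPM of each marker list (log axis) in the 3 libraries, 1 point per library. The perinatal muscle list is at 519 CPM in Stim1 cKO and at 6452 and 11389 CPM in the controls, whereas the pituitary list is high in Stim1 HT only.

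Arhgap36, of the Arhgap family (chrX:49463945-49500244), had 99 (Stim1 cKO), 3423 (Stim1 HT) and 6840 counts (Stim1 Ctrl). These were levels of 4.09, 174 and 266 CPM. The gene was abundant in both controls and low, but well above the limit of detection, in Stim1 cKO. The level was 42.5-fold higher in Stim1 HT (95% interval 34.8 to 52.4) and 65.0-fold higher in Stim1 Ctrl (53.3 to 80.1) than in Stim1 cKO. Fewer cells of a type and less RNA per cell cannot be told apart in RNA of a whole tissue. The perinatal muscle list moved in the same direction, as did other lists given above, and their part in the result was not tested.

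RefSeq lists a pair of starts for Arhgap36. The 250 bases before each start are shown because this gene had the widest range among the 9, on GRCm38.p6 at chrX:49463695-49463944 and chrX:49470200-49470449, both on the plus strand. Of the 9 genes, 7 were matched in the RefSeq table, with 8 starts in all, and Shh and Gli1 were not matched. The motif bound by Gli proteins, GACCACCCA, was searched on both strands of the 250 bases before each start. It was present at 0 of the 8 starts, against 0.225% of all 32851 starts in the table. The shorter ACCACCC, which lies within that motif and was chosen after the first search, was present at 1 of the 8 starts, that of Gli2, and at 3.92% of all starts. The Gli2 stretch lies at chr1:119053620-119053869 on the minus strand, and capitals mark the match, which begins 205 bases before the start and reads as GGGTGGT on that strand. A match or its lack describes these letters in this window only.
Arhgap36 first start: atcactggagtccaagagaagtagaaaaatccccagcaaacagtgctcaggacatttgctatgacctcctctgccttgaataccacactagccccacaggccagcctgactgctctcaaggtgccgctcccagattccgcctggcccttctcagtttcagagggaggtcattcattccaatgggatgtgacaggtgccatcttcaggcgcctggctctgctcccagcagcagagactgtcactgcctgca
Arhgap36 other start: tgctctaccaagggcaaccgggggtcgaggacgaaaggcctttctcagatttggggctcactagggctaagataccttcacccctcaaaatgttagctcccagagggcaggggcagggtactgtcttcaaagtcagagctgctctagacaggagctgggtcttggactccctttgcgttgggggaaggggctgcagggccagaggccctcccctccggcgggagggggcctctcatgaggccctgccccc
Gli2 start: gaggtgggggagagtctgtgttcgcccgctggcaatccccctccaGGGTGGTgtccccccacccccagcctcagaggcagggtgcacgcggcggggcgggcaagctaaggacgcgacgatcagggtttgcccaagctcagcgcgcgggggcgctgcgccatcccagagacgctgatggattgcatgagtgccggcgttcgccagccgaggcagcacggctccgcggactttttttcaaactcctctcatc

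Shh, the ligand, lies at chr5:28456815-28467256. It had 89 (Stim1 cKO), 459 (Stim1 HT) and 654 counts (Stim1 Ctrl), at levels of 3.68, 23.3 and 25.4 CPM. The controls were close to each other and both were well above Stim1 cKO, by 6.34-fold in Stim1 HT (95% interval 5.04 to 8.05) and 6.91-fold in Stim1 Ctrl (5.53 to 8.73). Between the controls the ratio was 0.917 (Stim1 HT over Stim1 Ctrl), with an interval of 0.812 to 1.03 that includes equality. Exons of Shh overlap those of 9530036O11Rik and Gm26894 on the opposite strand, and because the sources used here do not say whether counting was stranded, its count is uncertain to that extent. Those genes had at most 17 counts in any library.

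Ptch1, the receptor that restrains Smoothened and is itself transcribed in response to the pathway, lies at chr13:63508328-63573598. Its level was 64.1 (Stim1 cKO), 87.3 (Stim1 HT) and 106 CPM (Stim1 Ctrl). The 3 libraries were separated by more than counting error, and the level was 1.36-fold higher in Stim1 HT (1.27 to 1.46) and 1.65-fold higher in Stim1 Ctrl (1.55 to 1.75) than in Stim1 cKO. Smo, the transducer (chr6:29735503-29761365), was at 47.5 (Stim1 cKO), 114 (Stim1 HT) and 136 CPM (Stim1 Ctrl). Stim1 cKO was low and both controls were high, with ratios of 2.41-fold (2.24 to 2.58) for Stim1 HT and 2.85-fold (2.67 to 3.05) for Stim1 Ctrl over Stim1 cKO. Relative to Smo, there were 1.35 counts of Ptch1 per count for Stim1 cKO (1.25 to 1.46), 0.763 for Stim1 HT (0.716 to 0.813) and 0.777 for Stim1 Ctrl (0.739 to 0.818). The balance of the receptor and the transducer thus differed between Stim1 cKO and the controls beyond counting error, and was alike in the controls within it.

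Gli1, an activator and a widely used readout of the pathway, lies at chr10:127329882-127341974. It was at 28.1 (Stim1 cKO), 41.1 (Stim1 HT) and 55.6 CPM (Stim1 Ctrl). Both controls were above Stim1 cKO, by 1.46-fold (1.32 to 1.62) in Stim1 HT and 1.98-fold (1.80 to 2.17) in Stim1 Ctrl. On the opposite strand, its exons share 62 bases with those of Arhgap9, which had 107, 132 and 121 counts, and 265 bases with those of Gm47200, which is not listed in the counts. Gli2, the main activator among the Gli proteins, lies at chr1:118834132-119053619 and was at 10.9 (Stim1 cKO), 18.5 (Stim1 HT) and 25.8 CPM (Stim1 Ctrl). Its level was 1.69-fold higher in Stim1 HT (1.44 to 1.98) and 2.35-fold higher in Stim1 Ctrl (2.04 to 2.72) than in Stim1 cKO.

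Gli3, which acts mostly as a repressor, lies at chr13:15463235-15730026. It had 821 (Stim1 cKO), 550 (Stim1 HT) and 865 counts (Stim1 Ctrl), at 33.9, 27.9 and 33.6 CPM. It was the one gene of the 9 that was not lower in Stim1 cKO than in both controls. Stim1 cKO was 1.21-fold above Stim1 HT (1.09 to 1.36) and 1.01-fold above Stim1 Ctrl (0.916 to 1.11), an interval that includes equality. Its exons overlap those of Gm6556 on the opposite strand, which had at most 58 counts. There were 3.10 counts of Gli3 per count of Gli2 for Stim1 cKO (2.69 to 3.57), 1.51 for Stim1 HT (1.32 to 1.73) and 1.30 for Stim1 Ctrl (1.18 to 1.45). The ratio of these Gli genes was highest in Stim1 cKO, while the intervals of the controls overlapped.

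Hhip, a membrane protein that binds the ligand and limits its spread, lies at chr8:79965851-80058006. It was at 7.89 (Stim1 cKO), 9.14 (Stim1 HT) and 13.3 CPM (Stim1 Ctrl). Stim1 HT could not be told from Stim1 cKO at this depth, with a ratio of 1.16 (0.939 to 1.43), whereas Stim1 Ctrl was 1.69-fold above Stim1 cKO (1.41 to 2.03). Its exons share 175 bases with those of Gm27820 on the opposite strand, which is not listed in the counts. Sufu, which binds Gli proteins in the cytoplasm, lies at chr19:46396896-46488804. It was at 23.2 (Stim1 cKO), 33.4 (Stim1 HT) and 41.9 CPM (Stim1 Ctrl), which were 1.44-fold (1.28 to 1.61) and 1.81-fold (1.63 to 2.01) above Stim1 cKO.

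**Figure D2:**
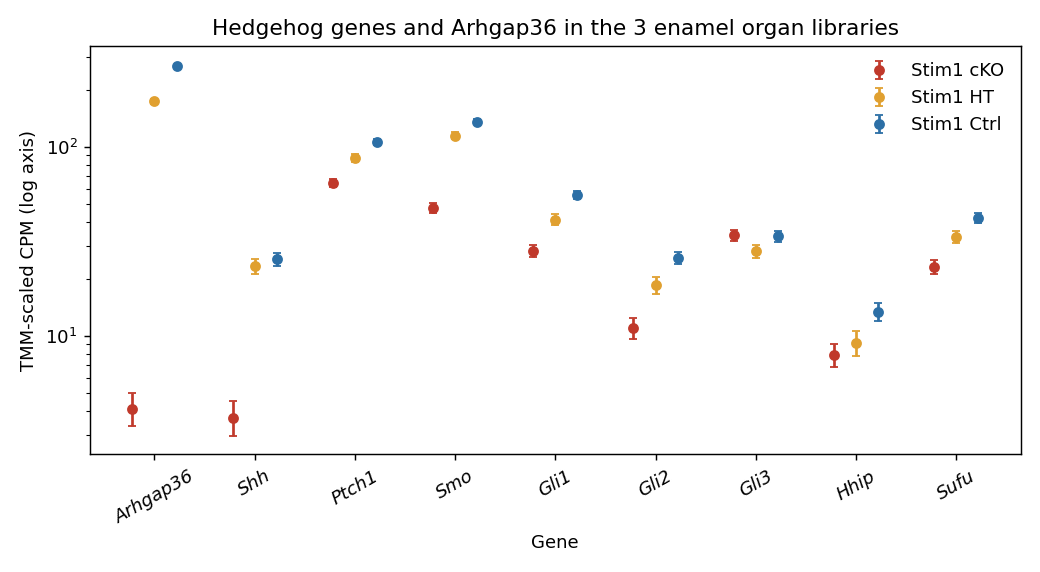
TMM-scaled CPM (log axis) of the 9 genes in the 3 libraries, with 1 point per library and 95% Poisson intervals of the count as bars. Arhgap36 spans from 4.09 CPM in Stim1 cKO to 266 CPM in Stim1 Ctrl, while Gli3 lies between 27.9 and 33.9 CPM.

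Divided by exon length, the levels can be ordered between genes. Exon length joined all annotated exons of a gene, so close ranks also depend on the annotation. In Stim1 Ctrl, Arhgap36 was highest at 77.7 CPM per kb, followed by Smo at 24.1 and Gli1 at 11.1 CPM per kb, and Hhip was lowest at 1.47 CPM per kb. In Stim1 HT, Arhgap36 was again highest at 50.8 CPM per kb, before Smo at 20.3 CPM per kb, and Gli1 at 8.23 and Shh at 8.18 CPM per kb did not differ beyond counting error. In Stim1 cKO the order was led by Smo at 8.46 CPM per kb, Gli1 at 5.62 and Ptch1 at 4.52 CPM per kb. There, Arhgap36 at 1.20 CPM per kb (0.972 to 1.46) was next to Shh at 1.29 (1.04 to 1.59) and Gli2 at 1.59 (1.41 to 1.80), and neighbours among them overlapped in their intervals. Arhgap36 thus ranked first of the 9 in both controls and eighth in Stim1 cKO, with Hhip after it at 0.869 CPM per kb (0.750 to 1.00), an overlapping interval. Intervals of neighbours also overlapped for Gli2 and Gli3 in both controls. Arhgap36 made up 1.83% of the counts of the 9 genes for Stim1 cKO (1.49 to 2.22, exact binomial), 32.9% for Stim1 HT (32.0 to 33.8) and 37.8% for Stim1 Ctrl (37.1 to 38.5). Without Arhgap36, the other 8 summed to 219, 355 and 437 CPM.

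Between the controls, each of the 9 genes was lower in Stim1 HT than in Stim1 Ctrl, against 49.7% of all genes tested. The ratio lay between 0.654 for Arhgap36 and 0.917 for Shh, and 8 of the 9 intervals excluded equality, the exception being Shh. None of the 9 differed over 2-fold between Stim1 HT and Stim1 Ctrl, against 13.5% of all genes. The log2 ratio of the controls had a median of -0.33 over the 9 and of 0.00 over all genes tested. With 1 library of each genotype, this difference has no replicate check. The sums of the perinatal and adult muscle, cartilage, fibroblast, dividing cell, odontoblast and bone, and skin lists were also lower in Stim1 HT than in Stim1 Ctrl. Their part in the result was not tested.

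In Stim1 cKO, 8 of the 9 genes were below both controls, against 42.1% of all genes tested, and in the same 8 the level was in the order Stim1 cKO, Stim1 HT, Stim1 Ctrl, against 25.4% of all genes. The exception was Gli3, above both controls, as were 43.6% of all genes. Within counting error of each other were Hhip in Stim1 cKO and Stim1 HT, Shh in the controls, and Gli3 in Stim1 cKO and Stim1 Ctrl. Arhgap36, Shh and Smo were over 2-fold below both controls, or 3 of the 9, against 8.23% of all genes, and Gli2, at 1.69-fold against Stim1 HT, was next. Without Stim1 HT, 4 of the 9, Gli2 included, were over 2-fold below Stim1 Ctrl, against 12.7% of all genes. None was over 2-fold above both controls, against 19.1% of all genes, nor above Stim1 Ctrl alone, against 25.2%. The median log2 fold change against the grouped controls was -0.78 over the 9, -0.997 without Stim1 HT, and -0.01 over all genes tested. As the comparison was used to choose among these genes, nothing is read from these counts. The sums of the perinatal and adult muscle, cartilage, fibroblast, dividing cell, secretory ameloblast, and odontoblast and bone lists were also lowest in Stim1 cKO. Their part in the result was not tested.

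Calls of the 9 in tests over all genes are not counted, because values of this comparison had been seen when the 9 were chosen. Their log2 fold change ranged from -5.75 for Arhgap36 to 0.14 for Gli3. edgeR's quasi-likelihood test compared Stim1 cKO with both controls, and its only spread is the difference of the 2 control libraries. At an adjusted p under 0.01 and over 2-fold, it called 0.0749% of all genes. An unadjusted p under 0.05 in the edgeR test was reached by 13.4% of all genes as lower and by 18.5% as higher. DESeq2 at an adjusted p under 0.01 and over 2-fold called 5.26% of 17283 genes lower and 6.3% higher.

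**Figure D3:**
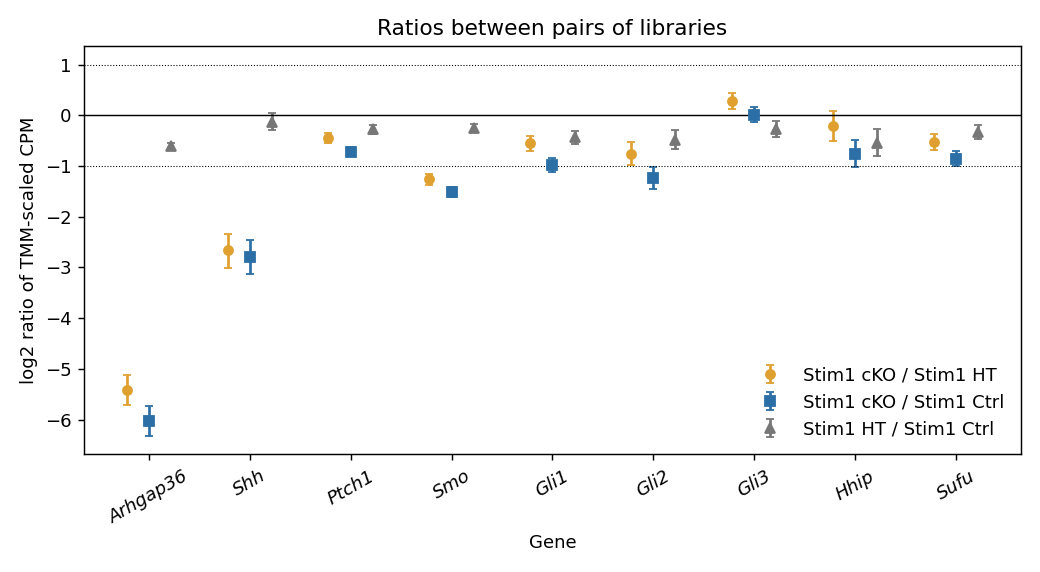
Log2 ratios of TMM-scaled CPM between pairs of libraries for the 9 genes, with 95% counting intervals as bars and dotted lines at 2-fold. The ratios of Stim1 cKO to the controls reach -6.02 for Arhgap36, while those of Stim1 HT to Stim1 Ctrl lie between -0.61 and -0.13.

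A further 56 genes of the pathway were taken from lists by role, and all 56 were tested. In edgeR's quasi-likelihood test 0 of them were called (0.0749% of all genes), while 15 were lower (13.4% of all genes) and 8 higher (18.5%) at an unadjusted p under 0.05. DESeq2 called 5 lower (Gpc3, Gas1, Prkaca, Prkar1a and Gnas; 5.26% of all genes) and 1 higher (Kif3a; 6.3%). By levels, 32 were below both controls (42.1% of all genes) and 18 above both (43.6%). Over 2-fold, 8 were below both (8.23% of all genes) and 5 above both (19.1%). Without Stim1 HT, 16 were over 2-fold below Stim1 Ctrl (12.7% of all genes) and 6 above it (25.2%). Their median log2 fold change was -0.40, against -0.01 over all genes tested. It was -0.33 without Stim1 HT, -0.21 without Stim1 Ctrl, -0.19 at a mean of 50 counts or more and -0.14 with library size scaling, which moved the median of all genes to 0.25.

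Among 7 genes of ligands and ligand release, 6 were below both controls (42.1% of all genes), and the median log2 fold change was -1.15, and -1.28 without Stim1 HT. Ihh, the ligand of growing cartilage, had 11 (Stim1 cKO), 25 (Stim1 HT) and 70 counts (Stim1 Ctrl). Dhh, another ligand of the family, had 80, 134 and 306 counts in the same order. Scube3, a secreted protein of a family that helps release the ligand, was at 27.5, 56.1 and 66.2 CPM, a log2 fold change of -1.15 with an edgeR adjusted p of 0.0588. These 3 genes were over 2-fold below both controls (8.23% of all genes), and without Stim1 HT 6 of the 7 were over 2-fold below Stim1 Ctrl (12.7%). Scube1, at 18.7, 17.8 and 20.8 CPM, lay between the controls. The sum of the cartilage list, among others, was also lower in Stim1 cKO, and the part of these lists in the result was not tested.

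Of 8 receptor and co-receptor genes, 7 were below both controls (42.1% of all genes), with a median log2 fold change of -0.82, and -1.04 without Stim1 HT. Gpc3, a glypican that binds the ligand and lowers signalling, was at 55.7 (Stim1 cKO), 363 (Stim1 HT) and 421 CPM (Stim1 Ctrl). Gas1, a co-receptor that promotes signalling, was at 80.6, 186 and 237 CPM. Both controls were high for each gene, with log2 fold changes of -2.82 for Gpc3 (adjusted p 0.0208, edgeR) and -1.39 for Gas1 (adjusted p 0.0605, edgeR). Neither passed the edgeR threshold. The fibroblast list (3952, 8349 and 12793 CPM) and the list of dividing cells (280, 632 and 837 CPM) were also lower in Stim1 cKO. So were the sums of the perinatal and adult muscle, cartilage, secretory ameloblast, and odontoblast and bone lists. The part of these lists in the result was not tested. Gpc3 and Gas1 were the 2 over 2-fold below both controls (8.23% of all genes). Without Stim1 HT, 4 receptor genes were over 2-fold below Stim1 Ctrl (12.7% of all genes) and 1 above it (25.2%). Lrp2, an endocytic receptor, was the one gene above both controls, with 175 (Stim1 cKO), 98 (Stim1 HT) and 73 counts (Stim1 Ctrl).

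Of the 20 regulators at the primary cilium and of Gli proteins, 8 were below both controls and 10 above both, near the 42.1% and 43.6% of all genes, and the median log2 fold change was 0.13. It was 0.12 without Stim1 HT, 0.05 without Stim1 Ctrl, 0.24 at a mean of 50 counts or more and 0.39 with library size scaling. Kif7, a kinesin of the cilium tip that regulates Gli, was at 8.10 (Stim1 cKO), 21.3 (Stim1 HT) and 23.9 CPM (Stim1 Ctrl). Kif3a, a motor subunit needed to build cilia, was at 118, 37.1 and 30.3 CPM, and Ift88, of the intraflagellar transport particle, at 32.8, 14.2 and 11.6 CPM. These cilium genes therefore lay on opposite sides of the controls. The log2 fold change was -1.48 for Kif7 (adjusted p 0.0539, edgeR), 1.81 for Kif3a (adjusted p 0.0249, edgeR) and 1.35 for Ift88 (adjusted p 0.0523, edgeR). Stk36, a kinase of the Fused family, had 327, 120 and 101 counts and was also over 2-fold above both controls. Without Stim1 HT, 2 of the 20 were over 2-fold below Stim1 Ctrl (12.7% of all genes) and 3 above it (25.2%). The sums of the neuron, enamel epithelium, maturation ameloblast and skin lists were higher in Stim1 cKO as well, and their part in the result was not tested.

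Of 13 genes of protein kinase A and the other Gli kinases, 7 were below and 6 above both controls, near the 42.1% and 43.6% of all genes. Prkaca, the catalytic subunit on which Arhgap36 acts, was at 136 (Stim1 cKO), 412 (Stim1 HT) and 526 CPM (Stim1 Ctrl). The level in Stim1 cKO was below both controls, a log2 fold change of -1.78 with an edgeR adjusted p of 0.0468. There were 0.0300 counts of Arhgap36 per count of Prkaca for Stim1 cKO (0.0243 to 0.0366), 0.422 for Stim1 HT (0.405 to 0.439) and 0.506 for Stim1 Ctrl (0.491 to 0.520). Gnas, the stimulatory G protein that raises cyclic AMP, was at 1059, 2209 and 2370 CPM. Prkar1a, a regulatory subunit, was at 263, 499 and 558 CPM, whereas its paralog Prkar1b was at 42.1, 17.6 and 19.1 CPM. Pkib, an inhibitor of the kinase, had 131, 42 and 15 counts. The sums of the perinatal muscle and fibroblast lists, among others, were also lower in Stim1 cKO. Those of the neuron, enamel epithelium, maturation ameloblast and skin lists were higher. The part of these lists in the result was not tested. Without Stim1 HT, 3 of the 13 were over 2-fold below Stim1 Ctrl (12.7% of all genes) and 2 above it (25.2%). The median log2 fold change of this list, -0.05 and, without Stim1 HT, -0.10, turned to 0.21 when counts were scaled by library size and to 0.08 under upper-quartile scaling, which moved the median of all genes to 0.25 and 0.12. It was 0.06 at a mean of 50 counts or more, where the median of all genes stayed at -0.01, and -0.00182 without Stim1 Ctrl.

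Of 8 genes known as hedgehog targets in other tissues, 4 were below both controls (42.1% of all genes) and 1, Bcl2, was above both (43.6%). Without Stim1 HT, 1 was over 2-fold below Stim1 Ctrl (12.7% of all genes) and 0 above it (25.2%). Bcl2, which inhibits apoptosis, was at 72.3 (Stim1 cKO), 31.1 (Stim1 HT) and 36.8 CPM (Stim1 Ctrl), a log2 fold change of 1.09 with an edgeR adjusted p of 0.0546. Foxc2, a forkhead transcription factor, had 79, 126 and 211 counts. The sum of the fibroblast list, among others, was also lower in Stim1 cKO. Those of the neuron, enamel epithelium, maturation ameloblast and skin lists were higher. The part of these lists in the result was not tested. The median log2 fold change of the list was -0.25, -0.18 without Stim1 HT, -0.37 without Stim1 Ctrl, 0.04 at a mean of 50 counts or more and 0.01 with library size scaling, which moved the median of all genes from -0.01 to 0.25.

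**Figure D4:**
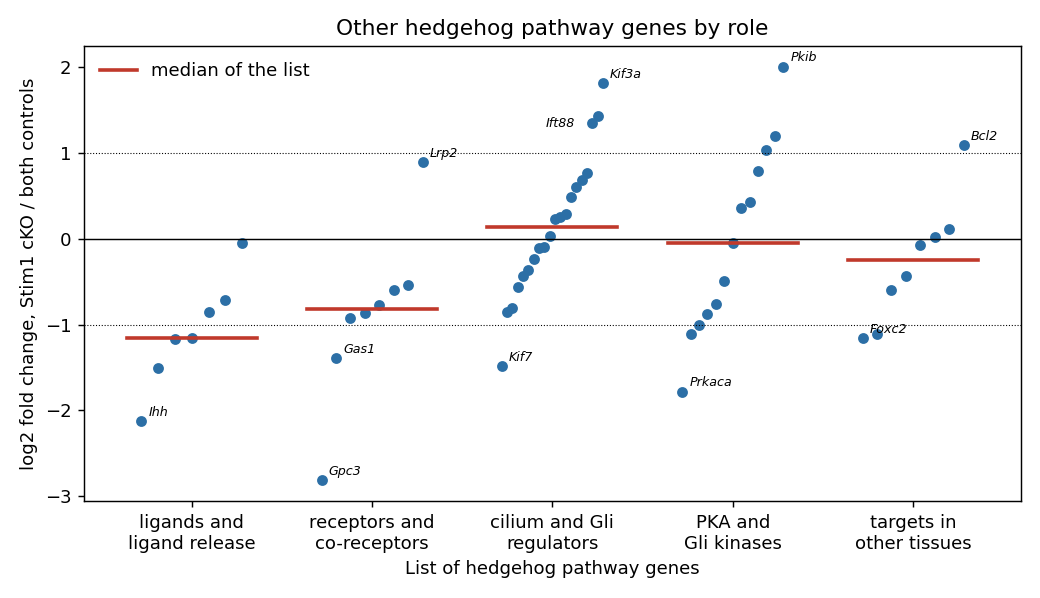
Log2 fold change of Stim1 cKO against both controls for the 56 other pathway genes, 1 point per gene in 5 lists, with red lines at the medians and dotted lines at 2-fold. Medians are -1.15 for ligands and ligand release and -0.82 for receptors, while the cilium and kinase lists have points on both sides of 0.

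The genes most like Arhgap36 in their pair of log2 ratios of Stim1 cKO to each control, among genes averaging 50 counts or more, were Myh7, Myh13, Chrna1, Prr32 and Myh3. Their distances from Arhgap36 ranged from 0.95 to 1.42 on the log2 scale, over 3 libraries. Myh7, a slow and cardiac myosin heavy chain, had 111 (Stim1 cKO), 2432 (Stim1 HT) and 4649 counts (Stim1 Ctrl). Chrna1, a subunit of the muscle acetylcholine receptor, had 95, 1731 and 3640 counts. These genes were selected by the same ratios, so their likeness to Arhgap36 is not a finding. Chrna1 and Myh3 also belong to the perinatal muscle list. The genes most like Shh were Myod1, Msc, Maged2, BC100530 and Impa2, at distances of 0.04 to 0.09. Myod1, a transcription factor of muscle precursors that also belongs to the perinatal muscle list, had 114, 561 and 822 counts. The genes most like Shh were selected by their ratios too, so their likeness to Shh is not a finding either.

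Per 1000 counts of the perinatal muscle list, there were 7.89 counts of Arhgap36 for Stim1 cKO (95% interval 6.40 to 9.61), 26.9 for Stim1 HT (26.0 to 27.9) and 23.3 for Stim1 Ctrl (22.8 to 23.9). Per 1000 counts of the adult muscle list there were 1.25, 21.5 and 26.9 counts of Arhgap36, and per 1000 counts of the fibroblast list 1.03, 20.8 and 20.8, so the size of the difference and the order of the controls depended on the denominator. Per 1000 counts of the secretory ameloblast list, there were 1.03 counts of Shh for Stim1 cKO (0.824 to 1.26), 0.748 for Stim1 HT (0.681 to 0.819) and 1.10 for Stim1 Ctrl (1.02 to 1.19). Stim1 cKO and Stim1 Ctrl overlapped in this ratio, whereas per 1000 counts of the enamel epithelium list there were 1.25, 12.6 and 14.6 counts of Shh. Per 1000 counts of the perinatal muscle list, Shh was highest in Stim1 cKO, at 7.09, 3.61 and 2.23 counts. On that scale 8 of the 9 genes, all but Arhgap36, were highest in Stim1 cKO, and per 1000 counts of the fibroblast list 6 of the 9 were, with Ptch1 at 16.2, 10.5 and 8.25 counts. Per 1000 counts of the enamel epithelium list all 9 were lowest in Stim1 cKO, so the direction depended on the denominator. These denominators were chosen after seeing the data.

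**Figure D5:**
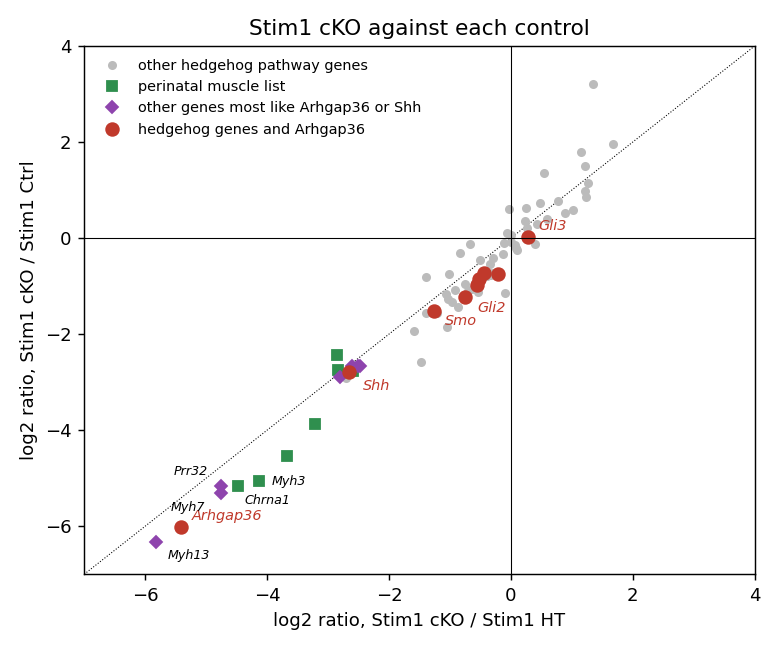
Log2 ratio of Stim1 cKO to Stim1 HT (horizontal axis) and to Stim1 Ctrl (vertical axis), 1 point per gene, with equality of both as a dotted line. Arhgap36 lies at -5.41 and -6.02, Shh lies at -2.66 and -2.79, and Gli3 is the nearest to 0 of the 9.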

How the data were processed

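RNA of 3 enamel organ libraries, 1 per genotype, was sequenced as paired-end reads, which the authors trimmed and aligned with STAR, and the deposited table holds raw counts per gene symbol. The genome build, annotation and the strand setting of counting are not given in the sources used here. The paper names a directional (stranded) NEBNext kit and the labels a SMARTER kit. The smallest count is 1, and each listed gene therefore has reads in all 3 libraries. Genes that lacked reads in even 1 library are missing, and shares of all genes leave them out. Stim1 cKO was tested against Stim1 HT and Stim1 Ctrl together with edgeR 4.0.16 (R 4.3.3; TMM, filterByExpr, quasi-likelihood, Benjamini-Hochberg adjustment; residual degrees of freedom 1, prior 4.15), called at an adjusted p under 0.01 and over 2-fold. DESeq2 1.42.0, other scalings and filters, an adjusted p under 0.05, no mitochondrially encoded genes and leaving out a control were alternatives. The tests were checked on simulated data, and the outcome of that check is not given here. Intervals used scipy 1.17.1, and sequences are from RefSeq. The members and lists were chosen with earlier results of these data known. Named genes are the members, genes of the lists, Stim1, and for each of Arhgap36 and Shh the 5 genes with the nearest pair of log2 ratios (CPM + 0.5), predicted genes left out. Genes overlapping the members and those under other observations were named after their values were seen.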

Additional observations from a re-analysis of the deposited data

How the results depend on the processing

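With 1 library per genotype, no mouse-to-mouse spread enters any result, and leaving out a control left no residual degrees of freedom, so those are values without a test. No paired analysis was possible because each genotype had 1 library. The number of genes called by edgeR was 14 (14 higher, 0 lower). It was 1998 with DESeq2 (1089 higher, 909 lower), 50 with RLE scaling, 138 with upper-quartile scaling (125 higher), 6 with library size scaling, 907 without a filter (687 higher), 6 at a mean of 50 counts or more and 1811 at an adjusted p under 0.05 (1272 higher). Calls of the 9 hedgehog genes are not counted, because values of this comparison had been seen when those genes were chosen. Of the 56 other pathway genes, 0 were called, against 6 with DESeq2, 2 without a filter (Gpc3 and Kif3a) and 4 at an adjusted p under 0.05. The cause was not tested.

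The median log2 fold change of the 9 was -0.78. It was -0.52 with library size scaling, which moved the median of all genes from -0.01 to 0.25, and -0.997 (without Stim1 HT) to -0.55 (without Stim1 Ctrl), and 8 of the 9 were below 0 under each alternative. The following alternatives were chosen after seeing the data. The number of the 9 over 2-fold below the controls was 3, and 3 to 4 when either control was left out. Of the other pathway genes, 8 were over 2-fold below both controls (8.23% of all genes), against 5 with upper-quartile and 4 with library size scaling. Those scalings moved the median of all genes from -0.01 to 0.12 and 0.25. Shares of all genes under them are not given. The count was 10 to 16 when either control was left out. Those over 2-fold above both numbered 5 (19.1% of all genes), against 6 to 8. The log2 fold change of Scube1 was -0.05, against 0.0838 with upper-quartile scaling, 0.22 with library size scaling, 0.0637 at a mean of 50 counts or more, -0.16 without Stim1 HT and 0.0716 without Stim1 Ctrl.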

Other observations

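Genes of intraflagellar transport and the BBSome, which carry proteins along the primary cilium, were listed by symbol after values of the pathway's cilium genes had been seen, so they were given no test. Of 33 tested, 27 were above both controls in Stim1 cKO (43.6% of all genes) and 1 was below both (42.1%), and 5 were over 2-fold above both (19.1% of all genes). Kif3a and Ift88, which had prompted the list, are 2 of these 5. Without Stim1 HT, 14 were over 2-fold above Stim1 Ctrl (25.2% of all genes). Their median log2 fold change was 0.64, and 0.91 without Stim1 HT and 0.42 without Stim1 Ctrl. Dync2h1, the heavy chain of the dynein that moves cargo back from the cilium tip, was at 54.0 (Stim1 cKO), 17.0 (Stim1 HT) and 16.8 CPM (Stim1 Ctrl). Traf3ip1, of the transport particle, was at 41.9, 17.8 and 13.4 CPM, and Bbs2, of the BBSome, at 28.1, 13.8 and 12.2 CPM. The neuron list, summed to 870, 236 and 199 CPM and with 5 of its 7 genes above both controls, was also higher in Stim1 cKO. The sums of the enamel epithelium, maturation ameloblast and skin lists were higher too. The part of these lists in the result was not tested.

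Among the other 32 genes whose symbol is Arhgap and a number, also listed after values were seen, the log2 fold change ranged from -1.34 for Arhgap19 to 2.31 for Arhgap40. Arhgap28, at 19.5 (Stim1 cKO), 41.6 (Stim1 HT) and 47.4 CPM (Stim1 Ctrl), was the one of them over 2-fold below both controls (8.23% of all genes), and Arhgap33 and Arhgap40 were over 2-fold above both (19.1% of all genes). Without Stim1 HT, 5 of the 32 were over 2-fold below Stim1 Ctrl (12.7% of all genes) and 2 above it (25.2%).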
